A study of Mus musculus with 7 samples.

Results

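Lipid-associated profibrotic macrophages are described here through 8 genes, Spp1, Gpnmb, Trem2, Fabp5, Cd9, Cd63, Lgals3 and Apoe. They were chosen by name, as known markers of these cells, with no threshold on their values but with earlier results of these mice known. All 8 were among the 55401 genes of the count table, a table in which 32896 genes were detected. All 8 passed the filter on low counts together with 17465 genes in all. RNA was sequenced from the right lung lobe of 7 male C57BL/6 mice aged 6 to 8 weeks and weighing 20 to 25 g, with 1 library per mouse. All 7 had been given bleomycin, a cytotoxic drug whose instillation injures the lung and leads to fibrosis. In the BLM group, 4 mice received no raised oxygen, and in the BLM+HBO group, 3 mice breathed hyperbaric oxygen (HBO) in a pressure chamber at 2.5 ATA for 90 min a day over 14 days, beginning on day 7. Tissue of both groups was taken on day 21. The sample records place the BLM mice in the chamber at normal pressure, whereas the study's methods describe them as untreated, and which applied was not settled here. No mouse without bleomycin was analysed here, so no level below can be set against an uninjured lung.

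Macrophages that gather in injured and fibrotic tissue can take on a shared program in which genes for lipid uptake, lysosomal breakdown and matrix remodelling are switched on together. Cells of this kind are known from fatty tissue, atherosclerotic plaques, cirrhotic liver and fibrotic lung, and their most used marker is Spp1. TREM2 is a surface receptor that binds lipids and apolipoproteins, and signals through the adaptor TYROBP. Most of the 8 genes are also used by other cells of the lung, among them epithelial cells and fibroblasts, and a library of whole lung holds RNA of all of them. In such libraries, fewer cells of a type and less RNA per cell cannot be told apart.

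The mean of each of the 8 genes was lower in BLM+HBO than in BLM, and the size of the difference ran from 2.67-fold for Spp1 to 1.04-fold for Cd9. Of all genes tested, 48.8% had a lower mean. For Cd9 and Fabp5 the log2 fold change was smaller than its standard error. Spp1, Apoe and Trem2 were called lower, where a call means an unadjusted P below 0.05 in edgeR's quasi-likelihood test together with a fold change above 1.5, the thresholds the study used. Those 3 of 8 genes stand against a background of 2.89% of all 17465 genes called lower, while 3.4% were called higher. The median log2 fold change of the 8 genes was -0.45, and that of all genes tested was 0.01. After Benjamini-Hochberg adjustment over all genes, edgeR called 0% of them, that is 0 of the 17465 and 0 of the 8. At an unadjusted P below 0.05 it had 1861 genes, and DESeq2 called 128 and limma 0 after adjustment. None of the 8 was among those 128, the lowest DESeq2 adjusted P of the 8 being 0.0787, for Trem2.

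The library of BLM+HBO 2 stood apart from the other 2 of its group. On the first principal component, with 37.3% of the variance, scores ran from -47.6 to -6.08 in BLM and were 54.8 and 37.8 in BLM+HBO 1 and 3 but -0.996 in BLM+HBO 2. It had the highest level of the group for 7 of the 8 genes, Fabp5 being the exception. Values are therefore also given without it. This mouse was set aside on values of these same lungs, the 8 genes among them, and the choice favours a larger difference. Calls and P values without it, here and below, describe the remaining mice and are not a test of the 8 genes. Omitting BLM+HBO 2 left 5 of the 8 genes called lower, with 5.41% of the 17879 genes then tested called lower. In that fit, 3 of the 8 had an adjusted P below 0.05 in edgeR, as against 1.49% of all genes. The median log2 fold change of the 8 was then -0.85. Total counts lay between 18157161 and 26365969 reads per mouse. Levels are given in CPM, the reads of a gene per 1000000 reads of its library, with the library size corrected by edgeR's TMM factors.

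The 8 genes took up 0.68% to 1.01% of all counted reads in the BLM mice. They took up 0.31% in BLM+HBO 1, 0.66% in BLM+HBO 2 and 0.35% in BLM+HBO 3. Most of this was Spp1 and Apoe. Spp1 made up 45.3% to 56.0% of the sum of the 8 genes in BLM, and 23.3%, 46.8% and 28.6% in BLM+HBO 1, 2 and 3. The sum of the remaining 6 genes was 1608 to 2136 CPM in BLM and 1238, 1773 and 1260 CPM in BLM+HBO 1, 2 and 3, so that BLM+HBO 2 fell within the BLM range and the other 2 mice below it.

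**Figure D1:**
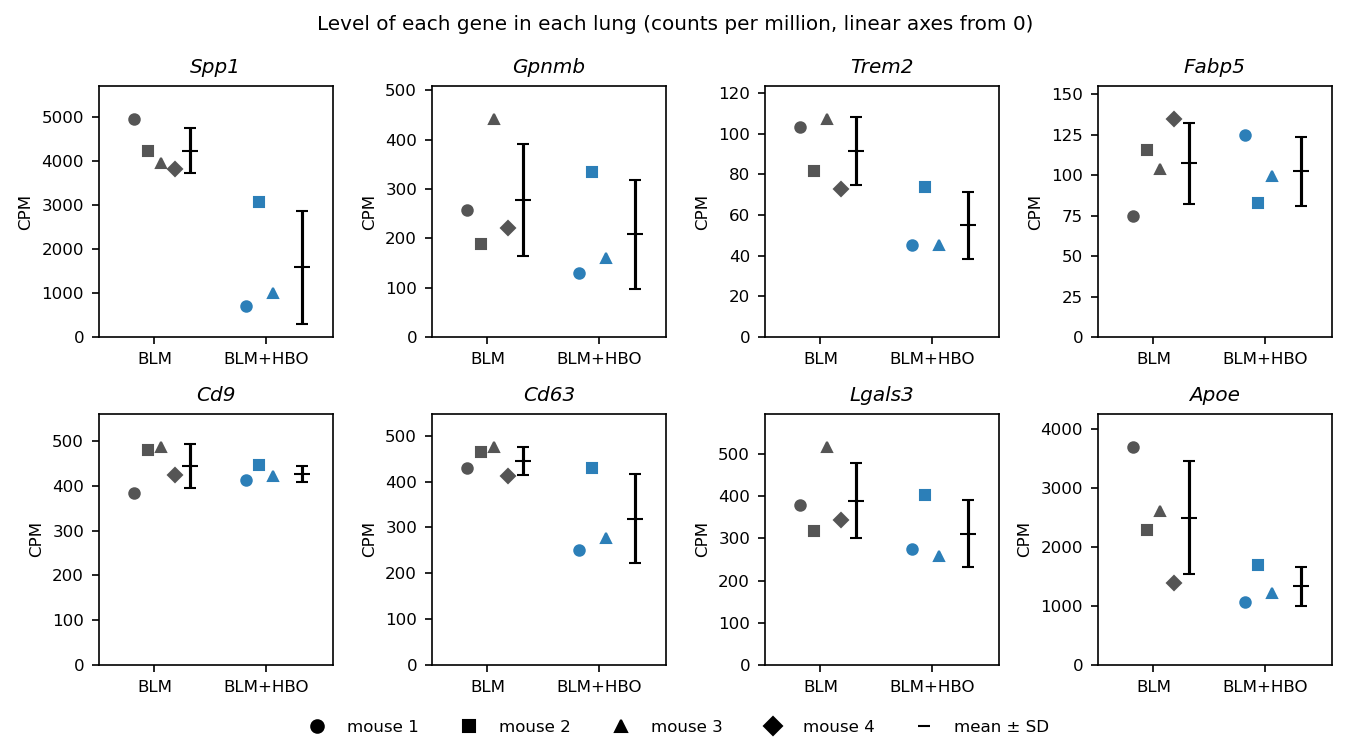
Levels of the 8 genes in each mouse. Each panel shows 1 gene with CPM on a linear axis from 0, the marker shape gives the mouse number, and the dash and bars give the mean and SD of 4 BLM or 3 BLM+HBO mice. Spp1 has no overlap between the groups, and BLM+HBO 2 (blue square) lies near the BLM mice for Spp1, Trem2, Cd63 and Apoe.

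For the genes called, the 250 bases before the transcription start are printed from RefSeq (build GRCm38.p6), with those of Cd9, whose level differed least, for contrast. Of the 8 genes, 7 had such a window in the RefSeq table. Fabp5 had none and is named only. Where the table listed several windows (2 for Spp1, 3 for Apoe), the one nearest to the gene start in the count table was taken. Windows were searched on both strands for 6 short motifs, and the share of all 32851 promoters that hold each one is given beside it. TCATGTG is the M-box of the MiT factors, which regulate lysosomal genes (3.25%). An E-box in its palindromic form is spelled CACGTG (6.02%). It lies inside GTCACGTG, the CLEAR core found before many lysosomal genes (1.85%). AP-1 was searched as TGANTCA (6.75%). The macrophage lineage factor PU.1 was searched as GAGGAAGT (2.44%). TATAAA is the TATA box (12.4%). Matches are in capitals, the rest in lower case, and sequences run 5′ to 3′ in the direction of the gene. The windows lie on chromosomes 5 (Spp1), 17 (Trem2), 7 (Apoe) and 6 (Cd9), which the labels print with a trailing decimal.
Spp1, chr5.0:104434861-104435110, + strand: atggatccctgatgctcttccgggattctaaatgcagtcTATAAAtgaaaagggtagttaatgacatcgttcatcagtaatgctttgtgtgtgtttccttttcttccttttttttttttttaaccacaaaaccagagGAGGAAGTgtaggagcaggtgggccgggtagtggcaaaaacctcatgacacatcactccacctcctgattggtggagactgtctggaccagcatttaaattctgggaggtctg
Trem2, chr17.0:48346151-48346400, + strand: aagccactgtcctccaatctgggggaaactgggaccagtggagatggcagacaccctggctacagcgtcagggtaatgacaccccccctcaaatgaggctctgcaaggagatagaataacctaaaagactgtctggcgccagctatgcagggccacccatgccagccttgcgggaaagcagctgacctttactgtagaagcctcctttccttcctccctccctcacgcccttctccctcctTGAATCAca
Apoe, chr7.0:19699189-19699438, - strand: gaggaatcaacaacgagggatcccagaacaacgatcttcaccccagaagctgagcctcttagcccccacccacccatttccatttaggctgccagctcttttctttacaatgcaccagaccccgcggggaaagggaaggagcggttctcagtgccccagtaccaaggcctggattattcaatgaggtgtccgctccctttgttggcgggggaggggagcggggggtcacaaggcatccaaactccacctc
Cd9, chr6.0:125494761-125495010, - strand: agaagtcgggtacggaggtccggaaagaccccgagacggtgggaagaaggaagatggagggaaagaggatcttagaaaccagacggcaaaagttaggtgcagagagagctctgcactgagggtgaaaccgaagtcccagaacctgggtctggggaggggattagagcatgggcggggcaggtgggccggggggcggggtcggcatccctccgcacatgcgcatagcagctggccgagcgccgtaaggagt
The Spp1 window holds the PU.1 letters, which begin at position -113 from the start, and the TATA letters at -211. The Trem2 window holds TGAATCA at -9, which matches the AP-1 letters as searched, with any base allowed at N. None of the searched letters occurs in the single window read for each of Apoe, Cd9, Gpnmb, Cd63 and Lgals3. For Cd63 and Lgals3, the RefSeq start of that window lies 8356 and 6109 bases from the gene start in the count table, and the promoter at that gene start was not searched. The Spp1 window has a GC content of 43.6% and 3 CpG, the Trem2 window 56.0% and 4, the Apoe window 57.2% and 8, and the Cd9 window 61.6% and 16, beside a median of 52.4% and 6 CpG over all promoters. A match describes the letters of the window only.

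Spp1 (ENSMUSG00000029304.14, chr5:104435118-104441050, + strand) encodes osteopontin, a secreted glycoprotein that binds integrins and CD44. Its level was 4952, 4215, 3941 and 3820 CPM in BLM 1 to 4, and 703, 3054 and 994 CPM in BLM+HBO 1 to 3. All 3 BLM+HBO mice lay below the lowest BLM mouse, but BLM+HBO 2 was far closer to the BLM mice than to the others of its group. Over all genes, 4.72% had groups that did not overlap with BLM+HBO the lower one, and Spp1 was the only 1 of the 8. The means were 4232 ± 508 CPM in BLM (SD, n = 4) and 1584 ± 1282 CPM in BLM+HBO (SD, n = 3), a coefficient of variation of 12% against 80.9%. Spp1 fell by 1.42 on the log2 scale (SE 0.44, edgeR unadjusted P = 0.00975, adjusted P = 0.423). Without BLM+HBO 2 the log2 fold change was -2.32 (SE 0.22), which is 4.99-fold lower, with an edgeR adjusted P of 0.00513, and over the alternatives the adjusted P ran from 0.00513 to 0.802. Reads that fall on both Spp1 and the overlapping transcript Gm42793, over 181 bases, would be dropped by the counting used, and Gm42793 itself had 3 to 82 reads per library. By mean CPM, Spp1 ranked 7 among all genes in BLM and 28 in BLM+HBO.

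Apoe (ENSMUSG00000002985.16, chr7:19696109-19699188, - strand) encodes apolipoprotein E, which carries cholesterol out of lipid-laden macrophages and is a ligand of TREM2. It stood at 3705, 2288, 2614 and 1388 CPM in BLM 1 to 4, and at 1075, 1694 and 1224 CPM in BLM+HBO 1 to 3. The groups overlapped through BLM 4, which lay below BLM+HBO 2, while the other 3 BLM mice lay above all BLM+HBO mice. The means were 2499 ± 957 CPM (SD, n = 4) and 1331 ± 323 CPM (SD, n = 3). Apoe fell by 0.91 on the log2 scale (SE 0.30, 1.88-fold, edgeR unadjusted P = 0.0145, adjusted P = 0.423). The log2 fold change was -1.12 without BLM+HBO 2. Without BLM+HBO 1 it was -0.78 and no longer called, at an edgeR unadjusted P of 0.0525.

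Trem2 (ENSMUSG00000023992.14, chr17:48346401-48354147, + strand), the lipid receptor, had 103.5, 81.6, 107.4 and 72.9 CPM in BLM 1 to 4 and 45.5, 73.9 and 45.5 CPM in BLM+HBO 1 to 3. BLM+HBO 1 and 3 were nearly equal and lay below all BLM mice, and BLM+HBO 2 lay just above BLM 4. The means were 91.4 ± 16.7 CPM (SD, n = 4) and 55.0 ± 16.4 CPM (SD, n = 3). Trem2 fell by 0.73 on the log2 scale (SE 0.21, 1.66-fold, edgeR unadjusted P = 0.00558, adjusted P = 0.423). The log2 fold change was -1.01 without BLM+HBO 2, with an edgeR adjusted P of 0.0367. Over the alternatives the adjusted P ran from 0.0136, in the edgeR fit without the filter on low counts, to 0.802. Spp1 and Trem2 stayed called whichever mouse was left out.

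Cd63 and Cd9 encode tetraspanins, membrane proteins that organise receptor clusters. CD63 sits in late endosomes, lysosomes and exosomes, and CD9 at the cell surface. Cd63 (ENSMUSG00000025351.14, chr10:128900989-128912822, + strand) had 429, 464, 477 and 412 CPM in BLM 1 to 4 and 251, 431 and 276 CPM in BLM+HBO 1 to 3. Here too BLM+HBO 1 and 3 lay below all BLM mice and BLM+HBO 2 among them. The log2 fold change was -0.48 (SE 0.18, edgeR unadjusted P = 0.0269, adjusted P = 0.438), and its fold of 1.40 was short of a call. Without BLM+HBO 2 it was -0.76 and called, with an edgeR adjusted P of 0.0367 and a range of 0.0367 to 0.802 over the alternatives. The edgeR unadjusted P was above 0.05 in 4 of the 7 fits that omitted a mouse, at 0.0563 without BLM 2, 0.0595 without BLM 3, 0.102 without BLM+HBO 1 (log2 fold change -0.33) and 0.104 without BLM+HBO 3 (log2 fold change -0.39). A transcribed near copy, Cd63-ps, is 98.5% identical over 812 bases and had 461 to 744 reads of its own per library. Reads shared by both would be dropped by the counting used, so the level of Cd63 is uncertain.

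Cd9 (ENSMUSG00000030342.8, chr6:125460266-125494791, - strand) had 384, 479.9, 488 and 424 CPM in BLM 1 to 4, and 413, 447 and 422 CPM in BLM+HBO 1 to 3. The 3 BLM+HBO mice lay inside the BLM range. The log2 fold change was -0.06 (SE 0.12, edgeR unadjusted P = 0.66, adjusted P = 0.905), and -0.09 without BLM+HBO 2. An overlapping transcript, Gm26728, shares 218 bases with Cd9 and had 2 to 5 reads per library. Among the 8 genes Cd9 had the smallest coefficient of variation in BLM+HBO, 4.06%.

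Gpnmb (ENSMUSG00000029816.10, chr6:49036546-49070929, + strand) encodes a transmembrane glycoprotein of lysosomes that is strongly induced in lipid-laden macrophages. It had 257, 189, 442.5 and 221 CPM in BLM 1 to 4 and 129.8, 335 and 160.1 CPM in BLM+HBO 1 to 3. BLM 3 was the highest and BLM+HBO 2 the second highest of the 7 mice, so that the groups overlapped. Its log2 fold change was -0.41 (SE 0.36, edgeR unadjusted P = 0.285, adjusted P = 0.709). Without BLM+HBO 2 it was -0.94 and called, but at an edgeR adjusted P of 0.183, the lowest of a range up to 0.934 over the alternatives. The log2 fold change shrank to -0.09 without BLM 3, to -0.16 without BLM+HBO 1 and to -0.25 without BLM+HBO 3.

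Lgals3 (ENSMUSG00000050335.17, chr14:47367751-47386160, + strand) encodes galectin-3, a lectin that binds galactose-bearing sugars and is abundant in activated macrophages. Its values were 379, 317.5, 518 and 343 CPM in BLM 1 to 4, and 274, 403.5 and 257 CPM in BLM+HBO 1 to 3. As for Gpnmb, BLM 3 was highest and BLM+HBO 2 second. BLM+HBO differed from BLM by a log2 fold change of -0.32 (SE 0.21, edgeR unadjusted P = 0.156, adjusted P = 0.608). It was -0.55 without BLM+HBO 2, where the fold of 1.47 was short of a call, but -0.15 without BLM 3 and -0.20 without BLM+HBO 3.

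Fabp5 (ENSMUSG00000027533.10, chr3:10012548-10016607, + strand) encodes a cytosolic carrier of fatty acids. It had 75.0, 115.8, 103.8 and 134.8 CPM in BLM 1 to 4 and 125, 83.0 and 99.3 CPM in BLM+HBO 1 to 3. The BLM+HBO mice lay inside the BLM range, and BLM+HBO 2 was here the lowest of its group. Fabp5 had a log2 fold change of -0.07 (SE 0.20, edgeR unadjusted P = 0.743, adjusted P = 0.932), and 0.06 without BLM+HBO 2. The pseudogenes Gm6166 and Gm14328 are 98.3% and 97.3% identical to Fabp5 over 409 and 408 bases and had at most 16 and 3 reads in a library. Reads that map to several places were not counted, so the level of Fabp5 is uncertain.

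**Figure D2:**
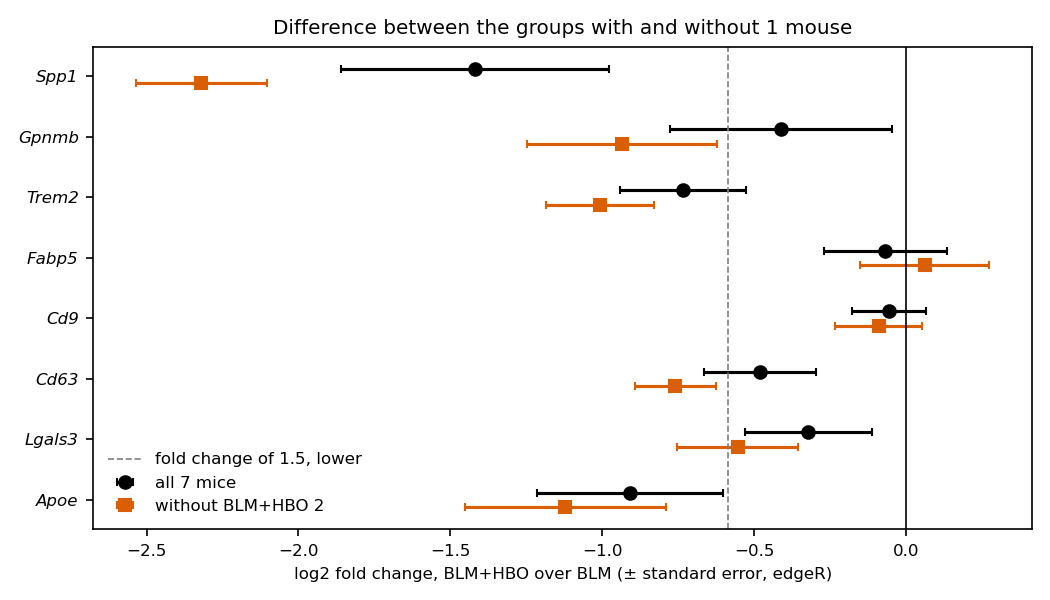
Log2 fold change of BLM+HBO over BLM for the 8 genes, with the standard error derived from the F statistic of edgeR's test as bars. Circles are all 7 mice and squares the 6 mice without BLM+HBO 2, and the dashed line marks a 1.5-fold lower level. Spp1 moves from -1.42 to -2.32 and Gpnmb from -0.41 to -0.94, whereas Cd9 and Fabp5 stay near 0.

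Levels per length were compared as TPM, a unit that also divides by gene length, computed from the counts and the gene lengths in the count table. The order of the 8 genes was the same in both groups, Spp1, Apoe, Cd9, Lgals3, Cd63, Gpnmb, Fabp5 and Trem2. In BLM the means were 7817 ± 1155 TPM for Spp1, 3556 ± 1435 for Apoe, 658 ± 46.3 for Cd9, 635 ± 129.8 for Lgals3, 367 ± 10.6 for Cd63, 128 ± 48.5 for Gpnmb, 91.3 ± 21.8 for Fabp5 and 56.05 ± 10.03 for Trem2 (SD, n = 4). In BLM+HBO they were 2961 ± 2495 TPM for Spp1, 1895 ± 523 for Apoe, 634 ± 46.0 for Cd9, 511 ± 150 for Lgals3, 264.5 ± 90.0 for Cd63, 97.95 ± 55.5 for Gpnmb, 86.8 ± 16.6 for Fabp5 and 33.9 ± 11.4 for Trem2 (SD, n = 3). Neighbours whose mean ± SD overlapped were Cd9 with Lgals3 and Gpnmb with Fabp5 in both groups, and Spp1 with Apoe in BLM+HBO only.

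The order of the mice was summed up over the 8 genes. The mean of their z-scores over the 7 mice, each computed on log2 CPM, was 0.13 to 0.996 in the BLM mice, -0.98 in BLM+HBO 1, 0.18 in BLM+HBO 2 and -0.91 in BLM+HBO 3. BLM 3 was the highest mouse and BLM+HBO 2 lay in the range of the BLM group. Among 15797 other genes with a mean of at least 1 CPM, those most like this mean profile by Pearson correlation over the 7 mice were Pdlim4 (r = 0.99), Tmed3 (r = 0.98), Pfn1 (r = 0.98), S100a6 (r = 0.98) and S100a4 (r = 0.98). Pdlim4 encodes an actin-associated LIM protein, Tmed3 a cargo protein of the secretory route, Pfn1 the actin-binding profilin, and S100a6 and S100a4 small calcium-binding proteins. S100a6 had 683 to 1175 CPM in BLM and 442, 692 and 435 CPM in BLM+HBO 1, 2 and 3, whereas S100a4 did not exceed 2.25 CPM in any mouse. The 7 points of each correlation share the difference between the groups. With the mean of each group taken out, r was 0.97 for Pdlim4, 0.96 for Tmed3 and Pfn1, and 0.95 for S100a6 and S100a4. These genes were picked by the first correlation, and the values are a description.

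**Figure D3:**
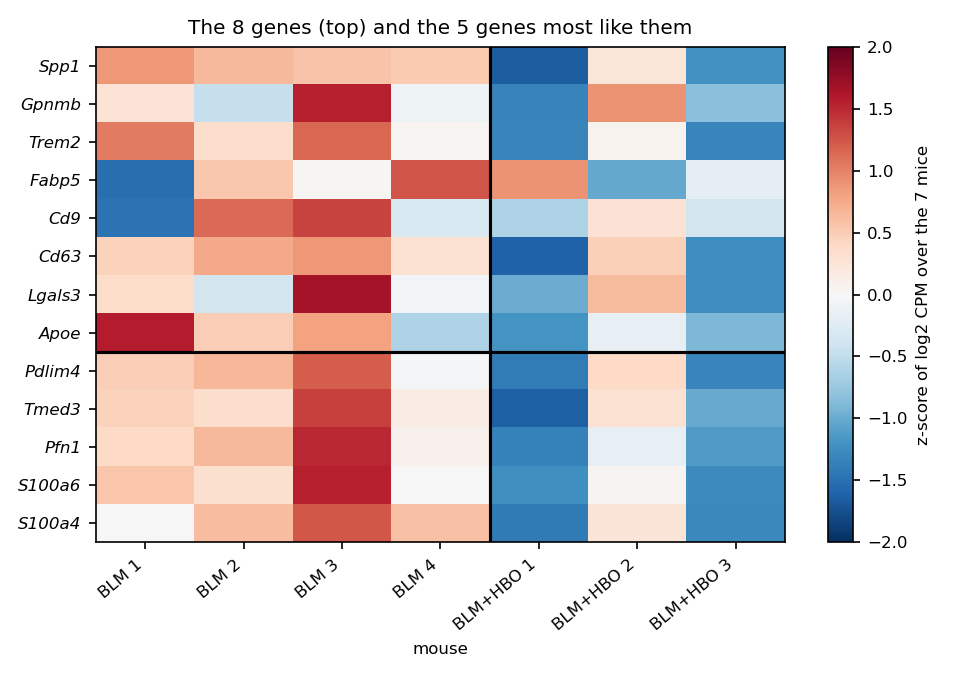
Level of the 8 genes (top) and the 5 genes most like them (bottom) in each mouse, as z-scores of log2 CPM over the 7 mice, from blue (low) to red (high). BLM+HBO 1 and 3 are low for Spp1, Trem2, Cd63 and Apoe, BLM+HBO 2 is close to the BLM mice, and Fabp5 and Cd9 follow other orders.

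To ask whether the genes differed beyond general macrophage RNA, each was set against the mean log2 CPM of 9 markers used for macrophages at large, Adgre1, Cd68, Csf1r, Mertk, Fcgr1, Lyz2, Cd14, Mpeg1 and Aif1, in the same mouse. This marker mean was 7.09 ± 0.04 in BLM (SD, n = 4) and 6.77 ± 0.24 in BLM+HBO (SD, n = 3), a difference of -0.32. It was 6.71, 7.04 and 6.58 in BLM+HBO 1, 2 and 3. The summed CPM of the same markers had the opposite order, 5562 to 7074 in BLM and 6227 to 8804 in BLM+HBO, because Lyz2 made up most of it, at a mean of 5408 and 6575 CPM. Lyz2 had a log2 fold change of 0.28, and which cells of the lung its reads came from was not tested. Of the 9 markers, 7 had a lower mean, and Fcgr1 (-0.82) and Adgre1 (-0.65) were called lower and none higher. Cd14 (-0.51) and Cd68 (-0.54) had an edgeR unadjusted P below 0.05 but were short of a 1.5-fold change. Omitting BLM+HBO 2 gave 4 calls, omitting BLM 1 or BLM+HBO 1 gave 1, and omitting BLM+HBO 3 gave 0.

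Relative to these markers, only Spp1 of the 8 genes passed a P of 0.05. It stood at 5.13, 4.96, 4.86 and 4.85 log2 units above the marker mean in BLM 1 to 4 and 2.75, 4.54 and 3.38 in BLM+HBO 1 to 3. The groups did not overlap. The difference was -1.39, with a two-sided exact permutation P of 0.0286, the smallest that 35 splits of 4 against 3 mice allow. Omitting BLM+HBO 2 gave -1.88, and omitting BLM+HBO 1 gave -0.99. Trem2 differed by -0.43 (exact permutation P = 0.0857), Apoe by -0.53 (exact permutation P = 0.171) and Cd63 by -0.20 (exact permutation P = 0.171). Gpnmb differed by -0.14 (exact permutation P = 0.743), Lgals3 by -0.01 (exact permutation P = 1.0), Fabp5 by 0.26 (exact permutation P = 0.486) and Cd9 by 0.27 (exact permutation P = 0.171). These 8 P values are unadjusted.

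**Figure D4:**
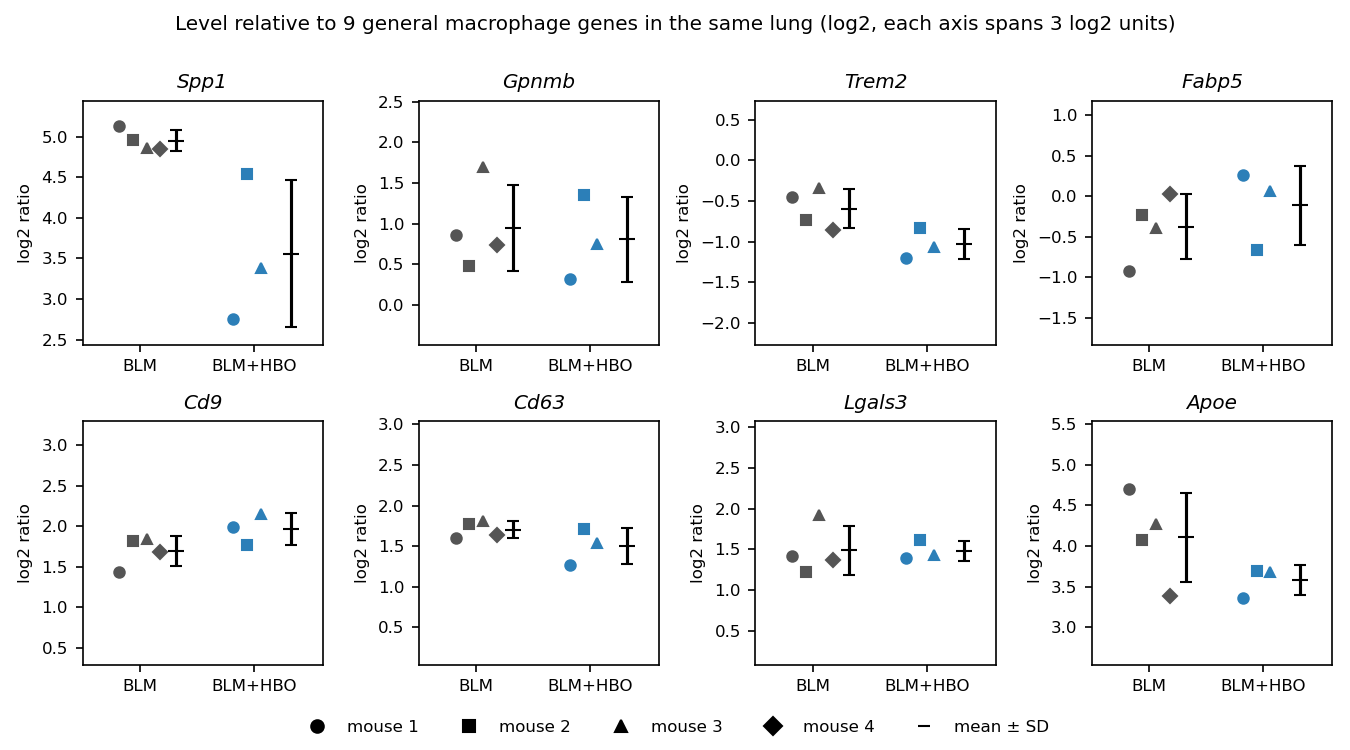
Level of each of the 8 genes minus the mean of 9 general macrophage markers in the same mouse, in log2 units. Every axis spans 3 log2 units, marker shapes give the mouse number, and the dash and bars give mean and SD. Spp1 separates the groups, the Trem2 difference is -0.43, and for Cd9 and Fabp5 the BLM+HBO mean is the higher one.

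Genes that act with the 8 were read from lists of known roles. For TREM2 signalling, 1 of 9 genes was called lower and none higher, with a median log2 fold change of -0.19. The gene called was Ms4a7, a membrane protein of macrophages (log2 fold change -0.64). It was not called when BLM 1, BLM 3, BLM+HBO 1 or BLM+HBO 3 was left out. For osteopontin receptors, 0 of 9 genes were called. Cd44, the hyaluronan receptor that also binds osteopontin, and Itgb1, an integrin subunit, had the highest mean CPM of them over the 7 mice, with log2 fold changes of -0.25 and -0.24. At an edgeR unadjusted P below 0.05 but short of 1.5-fold, Itgb3 (-0.53), Itgav (-0.49), Itgb5 (-0.54) and Itga5 (-0.55) were lower. Itga8 (0.55) was higher on the same terms. Without BLM+HBO 2, 4 of the 9 receptors were called lower and 1 higher, and 3 were called without BLM 2.

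For lipid handling, 3 of 19 genes tested were called lower and none higher (median -0.25). They were Msr1, a scavenger receptor for modified lipoproteins (-1.31), Ch25h, which makes 25-hydroxycholesterol (-1.27), and Fabp4, a fatty acid carrier (-0.63). Msr1 had 51.8 to 101.2 CPM in BLM and 20.6, 45.2 and 17.5 CPM in BLM+HBO 1, 2 and 3, so the groups did not overlap. Without BLM+HBO 2, 6 of the genes were called lower. For the lysosome of foamy macrophages, all 17 genes had a lower mean (median -0.26), beside 48.8% of all genes tested. Only Ctsl, a lysosomal protease, was called (-0.68). Omitting BLM+HBO 2 gave 7 calls, omitting BLM 4 gave 3, and omitting BLM+HBO 1 or 3 gave 0.

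Of 20 other genes of scar-associated macrophages, 7 were called lower and none higher (median -0.40). Arg1, the arginase of alternatively activated macrophages, had 45.1 to 130.0 CPM in BLM and 4.69, 22.6 and 6.75 CPM in BLM+HBO 1, 2 and 3, a log2 fold change of -2.75. The monocyte-attracting chemokines Ccl7 and Ccl2 were at -2.10 and -2.06, and Ctsk, a collagen-degrading protease, at -0.75. In Arg1, Ccl7 and Ccl2 the groups did not overlap, with BLM+HBO 2 the highest of its group. Omitting BLM+HBO 2 gave 9 calls, and omitting BLM+HBO 1 gave 4.

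Related gene families were read in the same way. Of 10 other tetraspanins, 0 were called, and the most abundant, Cd81 and Tspan7, had log2 fold changes of -0.08 and 0.39. Of 8 other galectin genes, Lgals1 was called lower (-0.84) and Lgals12, at a mean of 0.745 CPM in BLM and 1.57 in BLM+HBO, higher (1.07), and neither was called when BLM+HBO 1 or 3 was omitted. Of 5 lipid-binding protein genes tested, Fabp4 and Fabp7 were called lower, the latter at a mean of 1.31 CPM in BLM and 0.199 in BLM+HBO, and 1 of them was left when any 1 BLM mouse was omitted. Of 8 macrophage growth factors and receptors, 0 were called, with Tgfbr2 at -0.41 and Csf1r at -0.23. Whether these counts differ from those of the 8 genes was not tested.

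**Figure D5:**
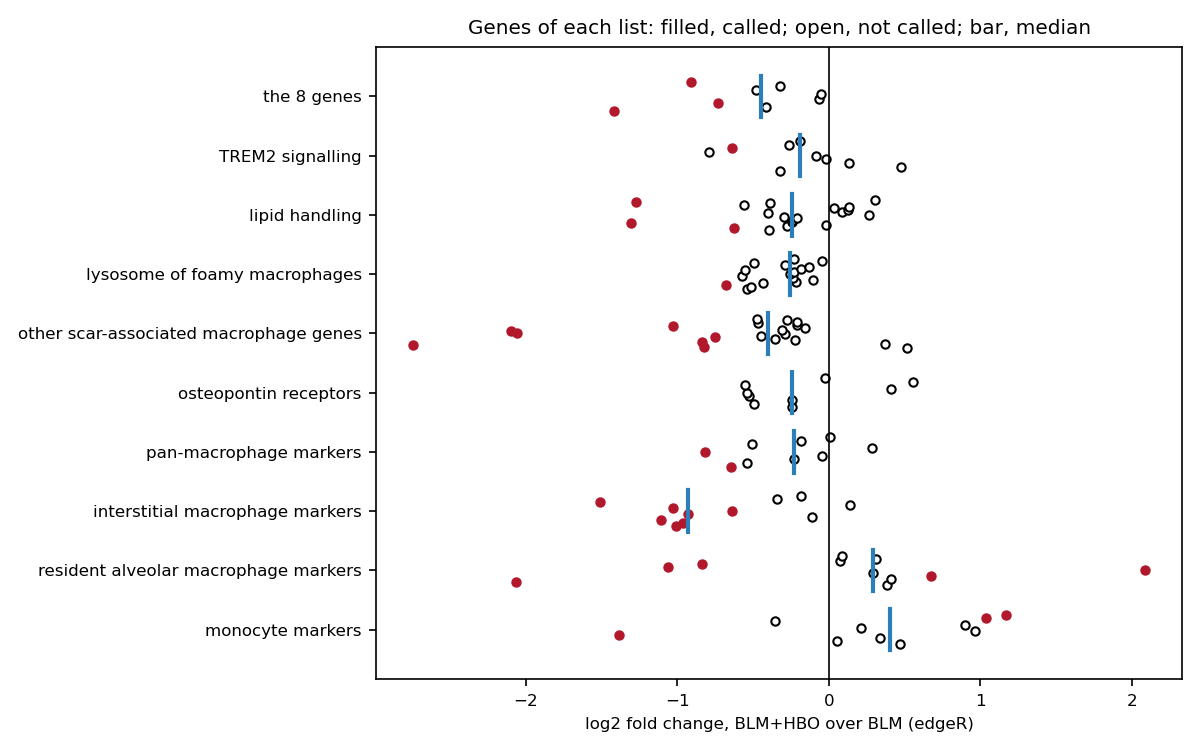
Log2 fold change of BLM+HBO over BLM for the 8 genes and for the genes of 9 lists, 1 circle per gene. Filled circles are called, open circles are not, and the blue bar is the list median, which is -0.45 for the 8 genes, -0.40 for the other scar-associated genes and -0.93 for interstitial macrophage markers.

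Markers of macrophage types moved with the groups in different directions. Of 11 interstitial macrophage markers, 7 were called lower and none higher, with a median of -0.93. C1qa, C1qb and C1qc, the chains of complement C1q, were at -1.01, -0.96 and -1.11. The summed CPM of the list was 1931 to 2801 in BLM and 1504 to 1972 in BLM+HBO, with BLM+HBO 2 at 1972. Of 11 resident alveolar macrophage markers, Marco (-2.06), Chil3 and Mrc1 (-0.84) were called lower and Krt79 (2.09) and Ear1 (0.67), both low in level, higher. The median of this list was 0.29, and only 3 of the 11 had a lower mean. Omitting BLM 1 or 2 left 3 calls, and omitting BLM+HBO 3 left 2. Of 10 monocyte markers, F13a1 (-1.38) was called lower and Treml4 (1.17) and Nr4a1 (1.04) higher, a total that was 5 without BLM+HBO 2 or BLM+HBO 3 and 1 without BLM 2 or BLM+HBO 1. With the interstitial markers in place of the general ones, Spp1 differed by -0.99, Trem2 by -0.03 and Apoe by -0.13.

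Markers of some other cell types also differed between the groups, and their part in the results for the 8 genes was not tested. Of 9 fibroblast markers, 5 were called lower, among them Col1a1 (-1.20), Cthrc1 (-1.16) and Dcn (-0.73), and Tcf21 was called higher (0.70). Their summed CPM was 6574 to 10670 in BLM and 2389 to 7000 in BLM+HBO, with BLM+HBO 2 again the highest of its group. In all, 6 were called, and this became 8 on omitting BLM+HBO 2 and 1 on omitting any of BLM 1, BLM+HBO 1 and BLM+HBO 3. All 8 heart muscle markers were called higher, with a sum of 59.7 to 169.7 CPM in BLM and 150.9 to 636 CPM in BLM+HBO, where Myh6 was at 2.78, Mb at 3.61, Actc1 at 1.73 and Ttn at 2.30, and 5 of the 8 were called without BLM+HBO 1. Of 8 lymphocyte markers, Cd79a (0.90), Cd79b (0.91), Ms4a1 (1.05) and Ncr1 (1.66) were called higher, and none of these without BLM+HBO 1. Of 10 epithelial markers only Scgb1a1 was called (0.73, higher), with 3 called without BLM+HBO 2 and none when BLM 1, BLM 3, BLM 4, BLM+HBO 1 or BLM+HBO 3 was left out. Of 7 endothelial markers 0 were called, and Vwf and Cdh5, the most abundant, were at -0.41 and 0.14. Vwf was the only 1 of the 7 with a lower mean, and their median was 0.21. Of 9 osteoclast markers, which share genes with scar-associated macrophages, Ctsk alone was called, and 2 were when BLM+HBO 1 or 2 was omitted. Of 6 neutrophil markers 0 were called, but 6 were without BLM+HBO 1, where S100a8 and S100a9 stood at -0.86 and -0.92 in place of 0.36 and 0.59. No marker of these types was at 0 in all mice.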

How the data were processed

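Each lung library was 1 replicate, and nothing in the labels ties mice of the groups to each other. Per the study's methods, the authors trimmed and mapped the reads to GRCm38 with HISAT2, and featureCounts at default settings gave the deposited raw counts per gene, without strand and without reads that map to several places. Tool names also stand in the submitters' processing notes. Symbols came from GENCODE vM21. Low genes were removed by filterByExpr with a minimum count of 10 and a minimum total of 15, and the rest were scaled by TMM and tested with edgeR 4.0.16 under R 4.3.3. Standard errors (SE) of edgeR's log2 fold changes were derived, as the size of the log2 fold change divided by the square root of the F statistic. Log2 CPM used a prior count of 2. Exact permutation tests were two-sided over 35 splits. Total counts of 18157161 to 26365969 per mouse limit the precision of low genes. The fits were also run on simulated counts with the same relative spread for all genes and no library standing apart. That check does not cover a mouse like BLM+HBO 2. DESeq2 1.42.0, limma 3.58.1 and other settings were alternatives.

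The members, lists and tests were chosen with earlier results of these data known, and so do not stand independent of these 7 lungs. By rule, the text names the 8 genes, up to 4 called genes of each of 20 lists by lowest P, otherwise the 2 with the highest CPM, and the 5 genes most like the 8. A gene that the rule names is not reported here. Chil3, Lyz2, Cd14, Cd68, Itgb3, Itgav, Itgb5, Itga5, Itga8, Gm42793, Gm26728, Cd63-ps, Gm6166 and Gm14328 were added after their values were seen. Near copies were searched with BLAST+ 2.17.0 at 95% identity over 150 bases. Protein sequences were not used here.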

Additional observations from a re-analysis of the deposited data

Results flagged for a closer look

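In groups of 4 mice, the gap of the most distant mouse was compared with the range of its group by Dixon's criterion at 95%. Of 63 groups examined, 3 were past it, where chance alone flags about 1 in 20 groups. Among the genes set beside the 8, the alveolar macrophage marker Krt79 was far lower in BLM 1, at a log2 CPM of -0.75 against 0.21 to 0.30 in the other BLM mice. The heart muscle marker Actc1 was lower in BLM 1 as well, at a log2 CPM of 3.64 against 4.84 to 4.87. The total count of BLM 4, 19002242 reads, was above the 18436336 to 18452895 reads of the other BLM mice. None of the 8 genes was flagged in the BLM group, and the 3 BLM+HBO mice were too few for this check.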

How the results depend on the processing

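The 8 genes had 120 refits of their log2 fold change under other settings, of which 110 kept direction and side of an unadjusted P of 0.05, 5 lost it, 2 gained it and 3 changed sign. The count of the 8 genes called was 3 in each of the other tools, scalings, filters and the replicate block, and 2 to 5 with 1 mouse left out (2 without BLM+HBO 1, 5 without BLM+HBO 2). All genes called were 1940 without a filter on low counts, and 659 to 1914 with 1 mouse left out. Genes past an adjusted P of 0.05 were 128 with DESeq2, 387 without the filter, and 0 to 267 with 1 mouse left out (2 without BLM+HBO 3). Same-numbered mice of the groups correlated at -0.01, -0.07 and 0.16, so the numbers were not taken as pairs. The replicate block called 1258 genes, 0 after adjustment, and gave log2 fold changes of 0.06 for Fabp5, -0.19 for S100a8 and -0.09 for S100a9. S100a8 was at -0.07 with limma-trend. With 1 mouse left out, Fabp5 ran from -0.24 to 0.06, S100a8 from -0.86 to 0.76 and S100a9 from -0.92 to 1.02. Against the whole library, Fabp5 was at -0.06 and Cd9 at -0.05. Against interstitial macrophage markers, 2 of the 8 genes passed an exact permutation P of 0.05, Spp1 as lower and Cd9 as higher. Those markers were themselves lower in BLM+HBO, with a median log2 fold change of -0.93. A gene without a difference thus comes out higher against them, and the pass of Cd9 says nothing about Cd9 itself. Gpnmb was at 0.27, Cd63 at 0.20, Lgals3 at 0.40 and Cd9 at 0.67. Against the general markers with 1 mouse left out, Gpnmb ran from -0.41 to 0.11 and Lgals3 from -0.09 to 0.14. By CPM without length, Cd63 ranked 3, Cd9 4 and Lgals3 5. The cause of these shifts was not tested. With 4 against 3 mice and 1 of 3 apart, small differences such as those of Cd9 and Fabp5 were not resolved.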
